A study of Rattus norvegicus with 12 samples.

Results

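The genes described here encode the phase II conjugation enzymes of rat liver, in which a polar group is attached to drugs, hormones and waste products. They were taken as the protein-coding genes whose symbols mark the glutathione S-transferase family (Gst followed by a class letter), the UDP-glucuronosyltransferase family (Ugt1, Ugt2 or Ugt3) or the cytosolic sulfotransferase family (Sult1 to Sult6). The rule used names and no measured values, and it found 41 genes among 33744 in the deposited table, of which 23 are Gst, 6 are Ugt and 12 are Sult genes. Bulk RNA-seq had been done on 12 livers of male Sprague Dawley rats aged 6 to 8 weeks, in 4 groups of 3 livers with 1 library per liver. Every liver had 30 min of warm ischemia in situ after cardiac arrest, in a model of donation after circulatory death (DCD), so no liver without ischemia was among the samples. Nothing more was done to the group named WI 30 min, while static storage in the cold for 4 h followed in the group named SCS 4 h. Livers of HMP 1 h and of HOPE 1 h were stored cold for 3 h and then received hypothermic machine perfusion through the portal vein for 1 h at 4 °C and 1.2 mL/min. The HOPE 1 h perfusate alone was actively oxygenated, to a PO2 of 60 to 80 kPa. Tissue was taken before any simulated transplantation.

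Conjugation is the second step of hepatic detoxification, after oxidation or hydrolysis has exposed a reactive or polar site. Glutathione S-transferases join glutathione to electrophiles, among them products of lipid peroxidation. UDP-glucuronosyltransferases sit in the endoplasmic reticulum and attach glucuronic acid to bilirubin, steroids and drugs, while sulfotransferases transfer sulfate from the donor PAPS to phenols, estrogens, hydroxysteroids and bile acids. The products leave the hepatocyte through transporters of the canalicular and sinusoidal membranes.

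Total counts were 15262961 to 18343167 per liver. Of the 41 genes, 32 passed the filter on low counts of edgeR and were tested among 13687 genes, and the 41 genes held 0.683% (HMP liver 1) to 1.1% (HOPE liver 2) of the counts. The deposited samples named as liver carried hepatocyte transcripts at 154000 to 237000 counts per 1000000 (CPM) summed over 11 markers such as Alb and Apoa1. HMP liver 1 and HOPE liver 3 stood apart. Their summed markers of non-parenchymal cells (bile duct, stellate, sinusoidal endothelial and Kupffer cells) were 5650 and 4300 CPM, against 2130 to 2920 CPM in the other livers, and mitochondrial transcripts took 18.7% of the counts of HMP liver 1 against 4.79% to 10.2% elsewhere. In bulk tissue, fewer cells of a type and less RNA per cell cannot be told apart.

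The sequences 5′ of 3 of the genes are shown because each leads a pattern in the values that follow: Gstp1 the pi class gene that ran with markers of other cells, Ugt1a1 the leading Ugt gene between groups, and Sult1c3 the leading Sult gene. Each is the 250 bases before the annotated start in the RefSeq annotation of GRCr8, matched by symbol, which is not the build of the counts. Capitals mark matches, on either strand, to TGACNNNGC (core of the antioxidant response element), GCGTG (core of the xenobiotic response element), GTTAAT (HNF1 site core) or TATAAA (the site bound by TBP at core promoters).
Gstp1 (chr1:210769706-210769955, minus strand): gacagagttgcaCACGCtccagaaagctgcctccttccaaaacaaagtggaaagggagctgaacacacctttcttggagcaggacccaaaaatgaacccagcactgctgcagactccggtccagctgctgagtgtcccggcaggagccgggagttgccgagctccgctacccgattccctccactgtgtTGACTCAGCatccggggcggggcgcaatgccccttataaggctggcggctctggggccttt
Ugt1a1 (chr9:96248893-96249142, plus strand): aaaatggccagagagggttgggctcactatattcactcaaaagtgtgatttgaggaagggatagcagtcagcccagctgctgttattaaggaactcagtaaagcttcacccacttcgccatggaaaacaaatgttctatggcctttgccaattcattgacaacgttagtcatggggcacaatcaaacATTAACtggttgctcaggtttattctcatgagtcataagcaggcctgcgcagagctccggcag
Sult1c3 (chr9:7594257-7594506, minus strand): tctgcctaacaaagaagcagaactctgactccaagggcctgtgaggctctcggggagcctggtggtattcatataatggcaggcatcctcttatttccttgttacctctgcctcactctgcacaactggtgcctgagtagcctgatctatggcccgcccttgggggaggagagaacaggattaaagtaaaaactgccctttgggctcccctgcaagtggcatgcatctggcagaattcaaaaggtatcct
The Gstp1 sequence held TGACNNNGC at −61 and GCGTG at −238 relative to the start, the Ugt1a1 sequence held GTTAAT at −63, and the Sult1c3 sequence held no match to the 4 motifs. Promoters of 29 of the 41 genes could be matched by an unambiguous symbol. TGACNNNGC was in 4 of them (13.8%) and in 10.1% of all 33469 promoters, GCGTG in 5 (17.2%) and 25.9%, GTTAAT in 3 (10.3%) and 6.45%, and TATAAA in 6 (20.7%) and 12.9%. A match is a run of letters in this window and was not tied to binding of any factor. The Ugt1a1 counts may come from any of 8 Ugt1a genes, and only the sequence before Ugt1a1 is shown.

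Among the Gst genes of the symbol rule, levels were led by the mu class. The rule left out LOC108348061, annotated as glutathione S-transferase alpha-3, at a mean of 291 CPM. The 5 Gsta genes of the rule summed to 235 CPM. LOC108348061 enters none of the class ranks, Gst shares or Gst sums given here. Gene levels are compared here as CPM per kilobase of the gene model, and on that scale Gstm1 (Rnor_6.0, chromosome 2, 210803869 to 210809306) stood at 612 and Gstm2 at 288. Gstm1 made up 37.8% of the Gst total per kilobase and ranged from 28.1% to 44.6% over the livers. Gstz1, the zeta class enzyme that acts as maleylacetoacetate isomerase in tyrosine breakdown, followed at 191, the alpha class gene Gsta5 at 132, the mitochondrial and peroxisomal kappa class gene Gstk1 at 91.1 and the omega class gene Gsto1 at 70.1. Gsta4, an alpha class enzyme known for its activity on 4-hydroxynonenal, had 66.4. The theta class genes Gstt3, Gstt2 and Gstt1 (34.6, 26.2 and 24.3), Gstp1 (24.4) and Gstm4 (23.6) lay lower, and Gsta2, Gstm3l, Gsta3 and Gsta6 lay between 5.44 and 13 CPM per kilobase. Gstcd, Gstm6 and Gsto2 were under 1 CPM per kilobase.

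**Figure D1:**
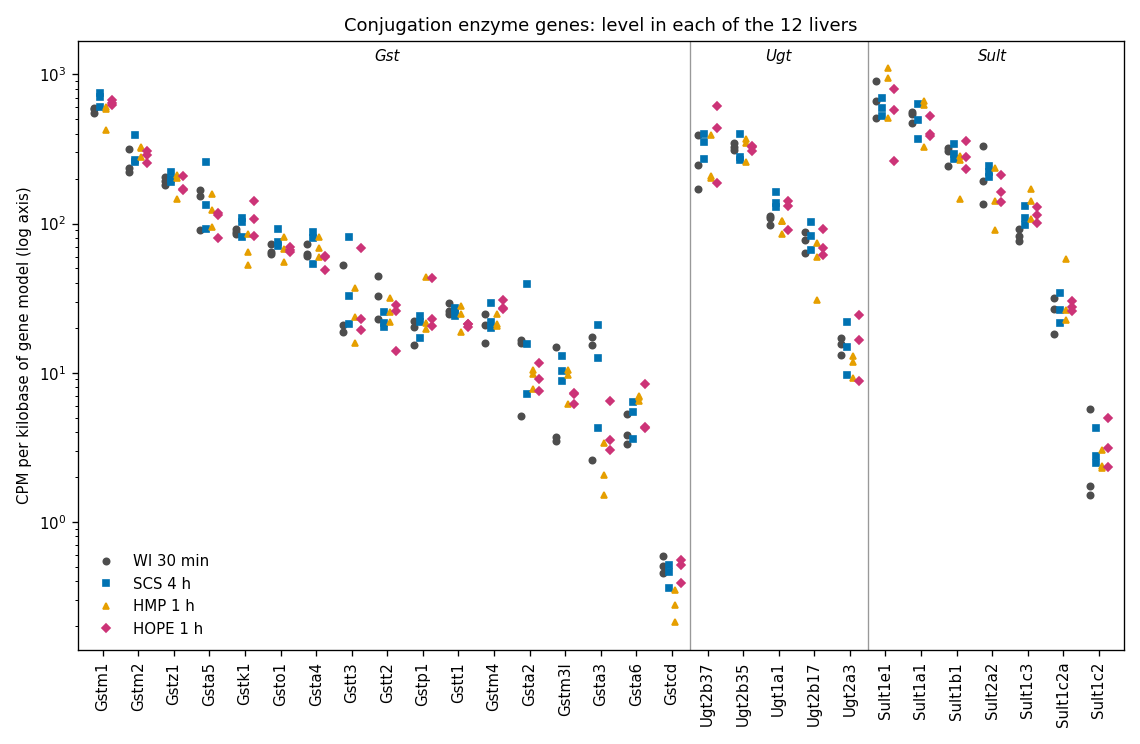
Level of the 29 tested genes with a mean of at least 1 CPM, 1 point per liver, on a log axis of CPM per kilobase of gene model, with the 4 groups side by side for each gene. Most genes show the groups mixed within the spread of their livers, with Gstm1, Sult1e1 and Ugt2b37 at the top of their families and Gsta3 as the gene with the widest range, its highest liver at 13.8 times its lowest.

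The Gst genes with the highest levels had narrow ranges. Gstm1 was at 660, 614 and 659 CPM in the WI livers, 842, 678 and 783 after SCS, 650, 474 and 673 after HMP and 715, 750 and 693 after HOPE. The SCS 4 h livers all lay above the WI 30 min and HMP 1 h livers, and HMP liver 2 was the lowest. Of all genes, 13% (WI 30 min) and 17.9% (HMP 1 h) had no overlap with SCS 4 h, in either direction. The share with both was not computed. Gstm2 was at 439, 628 and 469 CPM in the WI livers, 516, 533 and 777 after SCS, 558, 640 and 646 after HMP and 576, 606 and 507 after HOPE, with overlap between every pair of groups. Gstz1 was at 341, 384 and 362 CPM in the WI livers, 357, 415 and 372 after SCS, 276, 398 and 379 after HMP and 320, 389 and 317 after HOPE. HMP liver 1 was the lowest liver for Gstz1, and all groups overlapped. Gsto1, a thioltransferase that also reduces dehydroascorbate, was at 79.9, 70.8 and 68 CPM in the WI livers, 83, 100 and 77.8 after SCS, 60.4, 73.5 and 89.7 after HMP and 72.5, 76.4 and 70.1 after HOPE. Its SCS 4 h livers lay above the HOPE 1 h livers, and the other groups overlapped. In that pair 19.2% of all genes had no overlap, in either direction.

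Among the alpha and theta class genes single livers were high. Gsta5 was at 174, 93 and 159 CPM in the WI livers, 95, 268 and 137 after SCS, 128, 163 and 98.4 after HMP and 83.1, 118 and 121 after HOPE. Gsta4 was at 74.2, 62.9 and 61.5 CPM in the WI livers, 53.9, 88.4 and 80.8 after SCS, 59.8, 82.6 and 69.3 after HMP and 60.6, 61.3 and 49.5 after HOPE. SCS liver 2 was the highest liver for both genes. Gstt3 was at 33.2, 93.9 and 37.5 CPM in the WI livers, 37.7, 146 and 58.4 after SCS, 42, 66.3 and 28.4 after HMP and 34.3, 40.8 and 123 after HOPE. The high livers of Gstt3 came from 3 different groups, and its highest liver was 5.15 times its lowest. Gstt2 was at 44.8, 61.2 and 31.6 CPM in the WI livers, 34.9, 27.9 and 29.8 after SCS, 43.3, 35.2 and 30.3 after HMP and 35.7, 38.9 and 19.3 after HOPE, with overlapping groups. Gstm3l ranged from 2.3 to 9.75 CPM and Gsta6 from 6.65 to 16.9 CPM. Gsto2 stayed between 0.132 and 0.851 CPM, from 2 to 13 counts per liver.

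The Ugt signal came mostly from the Ugt2b and Ugt1a subfamilies. On the scale of CPM per kilobase Ugt2b37 and Ugt2b35, which glucuronidate steroids and drugs, stood at 323 and 322 and made up 36.9% and 38.9% of the Ugt total. Ugt1a1, the enzyme that conjugates bilirubin, stood at 117, Ugt2b17 at 72.1 and Ugt2a3 at 14.7. The symbol Ugt1a1 covers 141666 bases of chromosome 9 (95161157 to 95302822), and GRCr8 lists 8 protein-coding Ugt1a genes that all end at the same base, so its counts may come from any of them. Ugt2a3 spans Ugt2b37 and Ugt2b35 on the same strand of chromosome 14, and the sources used here do not say how reads were shared between the 3. GRCr8 lists 11 protein-coding Ugt2 genes where the counts have 4 Ugt2 symbols.

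Ugt2b37 had the highest CPM of all the genes and a wide spread. It was at 1100, 2500 and 1580 CPM in the WI livers, 1730, 2270 and 2570 after SCS, 1290, 2510 and 1340 after HMP and 1200, 3960 and 2820 after HOPE. The ranges of all groups overlapped, and HOPE liver 2 had 3.61 times the level of the lowest liver. Ugt2b35 was at 664, 595 and 623 CPM in the WI livers, 507, 532 and 754 after SCS, 489, 656 and 699 after HMP and 632, 618 and 584 after HOPE, a narrow range with all groups overlapping. Ugt2b17 ranged from 126 CPM in HMP liver 1 to 417 CPM in SCS liver 3, and Ugt2a3 from 48 to 134 CPM.

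The Sult family was led by Sult1e1, the estrogen sulfotransferase, at 674 CPM per kilobase, the highest level per kilobase of the 41 genes. This rank depends on the length of the gene model, which was 1274 bases for Sult1e1 and 6405 bases for Ugt2b37. Sult1a1, a phenol sulfotransferase, stood at 500, Sult1b1 at 278, Sult2a2, which acts on hydroxysteroids and bile acids, at 193 and Sult1c3 at 113 CPM per kilobase. Sult1c2a (29.1), Sult1c2 (3.05) and Sult2b1 (0.298) were far lower. The model of Sult2a2 spans 527902 bases, and GRCr8 lists 3 protein-coding Sult2a genes where the counts have 1 Sult2a symbol. Whether Sult2a2 holds reads of the others was not tested. Sult1e1 was at 1150, 655 and 850 CPM in the WI livers, 886, 761 and 672 after SCS, 649, 1400 and 1200 after HMP and 1010, 741 and 335 after HOPE. Both the highest and the lowest liver were perfused ones. Sult1a1 was at 687, 665 and 576 CPM in the WI livers, 454, 603 and 770 after SCS, 400, 808 and 768 after HMP and 484, 645 and 472 after HOPE. Sult2a2 was at 1220, 715 and 501 CPM in the WI livers, 908, 821 and 756 after SCS, 333, 879 and 526 after HMP and 518, 604 and 786 after HOPE. For both genes HMP liver 1 was the lowest and every pair of groups overlapped. Sult1b1 ranged from 185 to 457 CPM, Sult1c2a from 48.7 to 155, Sult1c2 from 4.74 to 18.1 and Sult2b1 from 0.367 to 1.68 CPM.

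Of the 41 genes, 9 did not pass the filter, and differences between groups were not detectable for them at this depth. Gstm5, Gstt4, Sult4a1 and Ugt3a2 had 0 counts in all livers, which allows up to 0.157 to 0.197 CPM per liver (3 counts, counting error only). Sult5a1 had 64 counts over the 12 livers, Gstm3 had 49, Sult6b1 28, Sult1d1 27 and Gstm6l 2.

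The families were summed over their genes, and their spread between livers of a group was not alike. The Gst genes summed to 2100 ± 107 CPM (SD, n = 3) in the WI livers, 2430 ± 149 after SCS, 2100 ± 83 after HMP and 2190 ± 122 after HOPE. The SCS 4 h livers (2260, 2490 and 2530 CPM) lay above all WI 30 min and HMP 1 h livers, and HOPE liver 2 (2330 CPM) overlapped them. The Ugt genes summed to 3740 ± 710 CPM (SD, n = 3), 4550 ± 703, 3520 ± 723 and 4790 ± 1530 in the same order of groups. The Sult genes summed to 2910 ± 616 CPM (SD, n = 3), 2850 ± 72.4, 2930 ± 1030 and 2490 ± 270. The SDs of the Sult sums in WI 30 min and HMP 1 h exceeded the gap between any of these Sult means. HMP liver 1 held the lowest sum of each family, at 2010, 2930 and 1800 CPM.

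**Figure D2:**
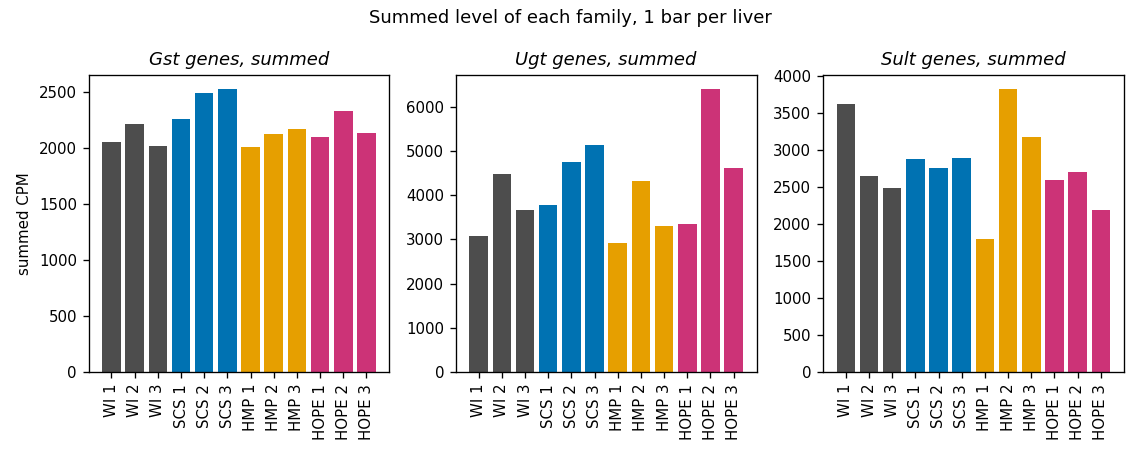
Summed CPM of the 23 Gst, 6 Ugt and 12 Sult genes, 1 bar per liver, coloured by group (grey WI 30 min, blue SCS 4 h, orange HMP 1 h, pink HOPE 1 h). The Gst sum moves between 2010 and 2530 CPM, while the Ugt sum runs from 2930 to 6400 CPM and the Sult sum from 1800 to 3820 CPM, with both ends of the Sult range in the HMP 1 h group.

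For most of the genes, as for most of all tested genes, the spread between livers of 1 group exceeded the spread between group means. The median SD of log2 CPM within groups was 0.402 for the 32 tested genes and 0.292 for all tested genes. The median SD between group means was 0.249 and 0.192, and it was larger than the SD within groups for 5 of the 32 genes against 18.6% of all tested genes. The highest liver had more than 2 times the CPM of the lowest for 21 of the 30 genes with a lowest level that allowed the ratio, and more than 3 times for 13. Gsta3 had the widest ratio (13.8), before Gsta2 (7.68) and Gstt3 (5.15). Gstz1 (1.5), Ugt2b35 (1.54) and Gstt1 (1.58) had the narrowest. HMP liver 1 was the lowest liver for 8 of the 32 genes, and SCS liver 2 the highest for 8.

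All 4 groups were first compared together, to ask whether any conjugation gene depended on the preservation. None of the 32 genes was called by the quasi-likelihood test of edgeR at a Benjamini-Hochberg adjusted p under 0.05, and 0% of all tested genes were called. At an unadjusted p under 0.05 the genes were Gsta3, Sult1c3, Gstk1 and Ugt1a1, 4 of 32, with 12.3% of all genes passing, so the share was that of the background. With DESeq2 Gsta3 alone was called (adjusted p = 0.0144), at a background of 4.14%.

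Sult1c3, a sulfotransferase gene on chromosome 9 (Rnor_6.0, 4930818 to 4978892), had its lowest values in the WI 30 min group. It was at 123, 115 and 138 CPM in the WI livers, 163, 146 and 196 after SCS, 160, 212 and 257 after HMP and 193, 170 and 152 after HOPE. Each of the 9 livers with cold storage lay above the 3 WI 30 min livers, and the 3 stored groups overlapped each other. Against WI 30 min, 13% (SCS 4 h), 16% (HMP 1 h) and 16.2% (HOPE 1 h) of all genes had no overlap, in either direction. The share of all genes with WI 30 min apart from all 9 stored livers was not computed. The log2 difference from WI 30 min was 0.74 (SE 0.18) in HMP 1 h, with an edgeR adjusted p = 0.131 and a DESeq2 adjusted p = 0.0105. It was 0.43 (SE 0.18, edgeR adjusted p = 0.962) in SCS 4 h and 0.46 (SE 0.18, edgeR adjusted p = 0.561) in HOPE 1 h, and these comparisons share the WI 30 min livers. Without HMP liver 1 and HOPE liver 3, the livers with high markers of other cells, the HMP 1 h difference was 0.92 (SE 0.157) and was called by edgeR (adjusted p = 0.0474). That fit kept only HMP livers 2 and 3 in the group, and called 46 genes among all tested in HMP 1 h against WI 30 min. Without HMP liver 1 alone, edgeR called 29 of all genes and 0 of the 32 in that comparison. A similar sulfotransferase gene, RGD1559960, lies beside it, and the split of reads between them was not tested.

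Static cold storage against warm ischemia alone asked what the cold interval adds. No gene of the 32 was called (edgeR), with 0% of all genes called. Gstm6, Sult1c3 and Ugt1a1 passed an unadjusted p under 0.05, all higher in SCS 4 h, against 4.77% of all genes. DESeq2 called none of the 32 and 0.11% of all genes. The livers of both groups did not overlap for 4 genes (Gstm1, Gstm6, Sult1c3 and Ugt1a1), against 13% of all genes. Ugt1a1 was at 916, 1050 and 1020 CPM in the WI livers, 1210, 1530 and 1280 after SCS, 966, 792 and 965 after HMP and 1230, 1320 and 841 after HOPE. The SCS 4 h livers lay above all WI 30 min and HMP 1 h livers, and the HOPE 1 h livers spanned both. The share of all genes with such a pattern was not computed. For Ugt1a1 the log2 difference of SCS 4 h from WI 30 min was 0.43 (SE 0.183, edgeR adjusted p = 0.962). Gstm6 was at 0.226, 0.25 and 0 CPM in the WI livers, 1.07, 0.421 and 0.524 after SCS, 0.743, 0.625 and 0.263 after HMP and 0.342, 0.415 and 0.21 after HOPE. It rests on 0 to 19 counts per liver and lies within Gstm2 on the same strand. Of the 32 genes, 26 had a positive difference (median 0.158), against 52.3% of all genes (median 0.0138). In the fit without HMP liver 1 and HOPE liver 3 it was 25 of 31 (median 0.138). Neither liver is in SCS 4 h or WI 30 min, so that fit kept the same livers here and does not check this count.

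Perfusion without active oxygenation was compared with warm ischemia alone, and 0 genes of the 32 were called by edgeR, with 0% of all genes called. Gsta3, Gsta6, Gstcd, Gstm6 and Sult1c3 passed an unadjusted p under 0.05, which is 5 of 32 against 13.8% of all genes. DESeq2 called Gsta3 and Sult1c3, against 2.83% of all genes. Livers did not overlap for 5 genes (Gsta6, Gstcd, Gstm6, Sult1c3 and Ugt2a3), against 16% of all genes. Gstcd, which contains a GST C-terminal domain, was at 2.14, 2.37 and 2.78 CPM in the WI livers, 2.41, 1.69 and 2.16 after SCS, 1.31, 0.999 and 1.64 after HMP and 2.62, 2.43 and 1.84 after HOPE. The HMP 1 h livers lay below every liver of the other groups, and the share of all genes with such a pattern was not computed. Its log2 difference from WI 30 min was −0.88 (SE 0.3, edgeR adjusted p = 0.254), from 16 to 46 counts per liver. Gsta6 was at 13.9, 14.1 and 12.9 CPM in the HMP 1 h livers and 7.73, 10.7 and 6.65 in WI 30 min (log2 difference 0.71, SE 0.292, edgeR adjusted p = 0.324). All 5 Ugt genes tested had lower fitted levels in HMP 1 h than in WI 30 min (median −0.13 on the log2 scale), but Ugt2b35 (−0.03) and Ugt2b37 (−0.01) were near 0 and turned positive, at 0.12 and 0.16, without HMP liver 1 and HOPE liver 3. In the fit with all livers 13 of the 32 genes were positive against 53.4% of all genes.

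Oxygenated perfusion was compared with warm ischemia alone in the same way. EdgeR called 0 of the 32 genes and 0% of all genes. Gstm4, Gstt1 and Sult1c3 passed an unadjusted p under 0.05, against 8.57% of all genes. DESeq2 called none of the 32 and 0.709% of all genes. Livers did not overlap for 5 genes (Gsta4, Gstm1, Gstm4, Gstt1 and Sult1c3), against 16.2% of all genes. Gstm4, a mu class gene, was at 43.5, 36.2 and 27.5 CPM in the WI livers, 51.2, 38.1 and 34.7 after SCS, 35.7, 43.2 and 36.9 after HMP and 53.7, 47.6 and 46.8 after HOPE. The HOPE 1 h livers lay above those of WI 30 min and of HMP 1 h, and SCS liver 1 lay among them. The share of all genes with that pattern was not computed. For Gstm4 the log2 difference from WI 30 min was 0.47 (SE 0.183, edgeR adjusted p = 0.559). Gstt1, a theta class gene, was at 28, 24.6 and 23.6 CPM in the WI livers, 25.6, 22.9 and 24.9 after SCS, 26.4, 23.4 and 17.7 after HMP and 20.1, 20 and 19.3 after HOPE. All HOPE 1 h livers lay below the unperfused livers, and HMP liver 3 was lower still. How many of all genes had HOPE 1 h apart from the unperfused livers was not computed. For Gstt1 the log2 difference of HOPE 1 h from WI 30 min was −0.36 (SE 0.146, edgeR adjusted p = 0.561).

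Each form of perfusion was then compared with static storage of equal total length. In HMP 1 h against SCS 4 h edgeR called 0 of the 32 genes and 0% of all genes. Gsta3, Gstcd, Gstk1, Gstm1 and Ugt1a1 passed an unadjusted p under 0.05, all lower in HMP 1 h, against 14.5% of all genes. DESeq2 called Gsta3, against 3.2% of all genes, and livers did not overlap for Gsta3, Gsta6, Gstcd, Gstm1 and Ugt1a1, against 17.9% of all genes. Ugt1a1 differed by −0.56 (SE 0.183, edgeR adjusted p = 0.198) on the log2 scale and Gstm1 by −0.36 (SE 0.152, edgeR adjusted p = 0.311). Of the 32 genes, 9 were positive (median −0.293), against 54.2% of all genes (median 0.0374). Without HMP liver 1 and HOPE liver 3 the count was 10 of 31 (median −0.22).

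In HOPE 1 h against SCS 4 h edgeR called 0 of the 32 genes and 0% of all genes, Gsta3 alone passed an unadjusted p under 0.05 against 10.9% of all genes, and DESeq2 called none against 1.49%. Livers did not overlap for 4 genes (Gstm3l, Gstm6, Gsto1 and Gstt1), against 19.2% of all genes. Gsta2, an alpha class gene, was at 12.7, 4.12 and 13.2 CPM in the WI livers, 5.78, 31.7 and 12.5 after SCS, 7.88, 8.37 and 6.25 after HMP and 9.29, 7.29 and 6.03 after HOPE. SCS liver 2 set the SCS 4 h mean of 16.6 ± 13.4 CPM (SD, n = 3), and the groups overlapped. The log2 difference of HOPE 1 h from SCS 4 h was −1.14 (SE 0.534, edgeR adjusted p = 0.465). Gsta2 is also an older symbol of Gsta5 in GRCr8, so the names of these alpha class genes differ between builds.

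HOPE 1 h was compared with HMP 1 h to ask what active oxygenation of the perfusate changes. EdgeR called 0 of the 32 genes and 0% of all genes, and DESeq2 none of the 32 and 0.11% of all genes. Gstk1 and Gstcd passed an unadjusted p under 0.05, both higher in HOPE 1 h, against 7.48% of all genes. Livers did not overlap for Gstcd, Gstm1 and Gstm4, against 11.1% of all genes. Gstk1 was at 81.3, 88 and 83.5 CPM in the WI livers, 98.6, 78.1 and 104 after SCS, 61.9, 81.5 and 50.6 after HMP and 78.9, 136 and 103 after HOPE. HOPE liver 1 lay below HMP liver 2, and the other HOPE 1 h livers lay above all HMP 1 h livers. The log2 difference was 0.71 (SE 0.21, edgeR adjusted p = 0.558), and 0.68 (SE 0.266) without HMP liver 1 and HOPE liver 3. The log2 difference of Gstcd was 0.80 (SE 0.3, edgeR adjusted p = 0.599). The signs were even, with 16 of the 32 genes positive against 49% of all genes.

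**Figure D3:**
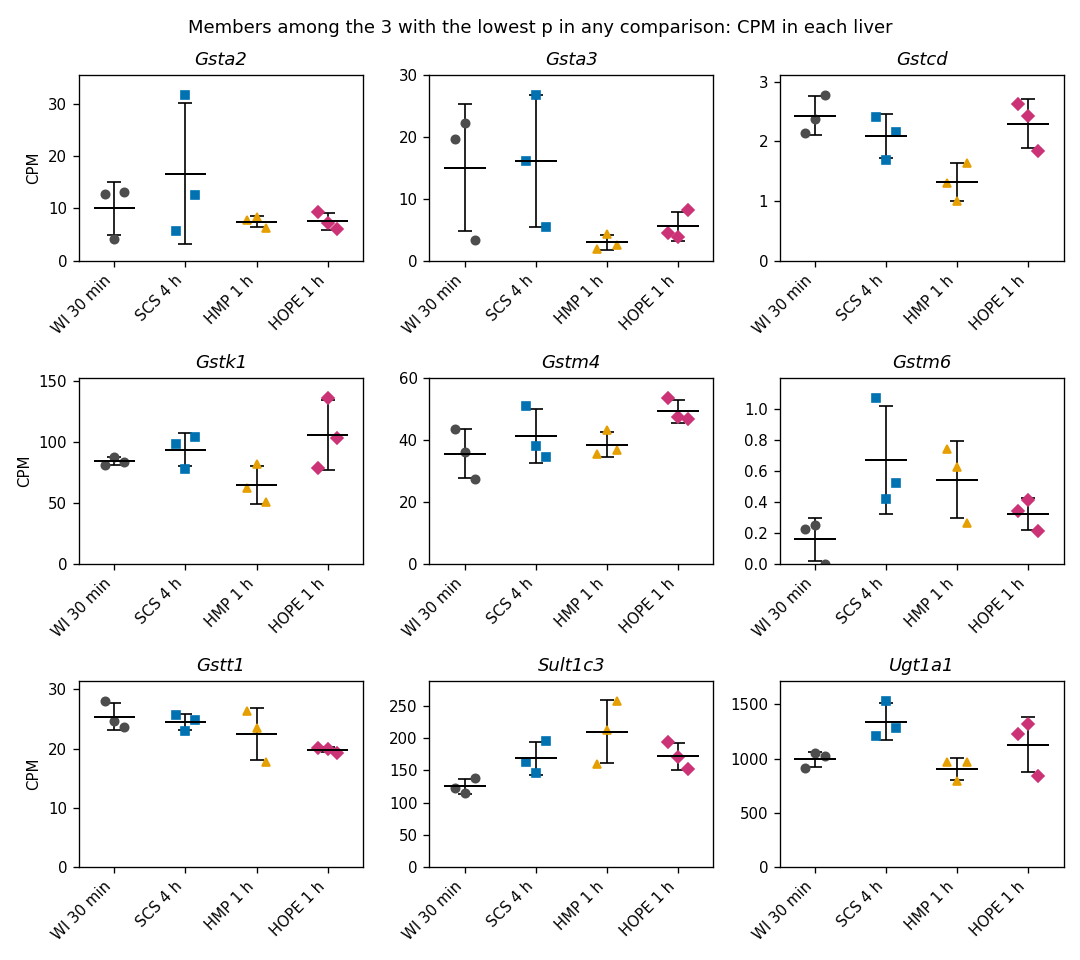
CPM in each liver (points) of the 9 genes that were among the 3 with the lowest p in any comparison, on axes from 0, with the mean and SD of the 3 livers of a group in black. Sult1c3 lies at 115 to 138 CPM in WI 30 min and at 146 to 257 CPM in the other livers, Gstcd lies lowest in HMP 1 h, and the WI and SCS groups of Gsta3 each hold 1 liver at the level of the perfused groups.

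The 6 perfused livers (HMP and HOPE) were set against the 6 unperfused livers (WI and SCS). EdgeR called 0 of the 32 genes, while 140 genes (1.02%) were called among all tested genes, 37 higher and 103 lower. Gsta3, Gstt1 and Sult1c3 passed an unadjusted p under 0.05, against 17.7% of all genes, and DESeq2 called Gsta3, against 5.43%. Perfused and unperfused livers overlapped for each of the 32 genes, so 0 were without overlap, against 1.83% of all genes. Of the 32 genes 10 were positive (median −0.128), against 54.7% of all genes (median 0.0297). Without HMP liver 1 and HOPE liver 3 it was 11 of 31 (median −0.0729), against 51.4% (median 0.00835). By family 5 of 19 Gst, 2 of 5 Ugt and 3 of 8 Sult genes were positive.

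Gsta3 had the largest difference of the 32 genes between perfused and unperfused livers. It was at 19.6, 22.2 and 3.32 CPM in the WI livers, 16.1, 26.8 and 5.43 after SCS, 1.94, 4.31 and 2.63 after HMP and 4.5, 3.91 and 8.24 after HOPE. WI liver 3 and SCS liver 3 lay within the range of the perfused livers, and the other 4 unperfused livers lay above all perfused ones. The mean was 4.26 ± 2.19 CPM (SD, n = 6) in perfused and 15.6 ± 9.38 CPM in unperfused livers, a log2 difference of −1.94 (SE 0.478, edgeR adjusted p = 0.0766). DESeq2 gave an adjusted p of 0.00113, and edgeR called the gene without WI liver 3 (adjusted p = 0.0244). WI liver 3 was the lowest unperfused liver, so leaving it out widens the difference, and that fit called 166 of all genes. No other fit that left out 1 liver called Gsta3. Gsta3 (Rnor_6.0, chromosome 9, 27402381 to 27417023, plus strand) lies entirely inside a gene on the opposite strand, LOC108348061, which the table also describes as glutathione S-transferase alpha-3 and which had a mean of 291 CPM. The sources used here do not say whether counting used strand. For LOC108348061 alone the log2 difference was −0.155 (edgeR adjusted p = 0.706). With the counts of both genes summed it was −0.21 (SE 0.193, edgeR adjusted p = 0.609). Since Gsta3 had a mean of 9.92 CPM, the sum follows LOC108348061 and does not test Gsta3 itself.

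**Figure D4:**
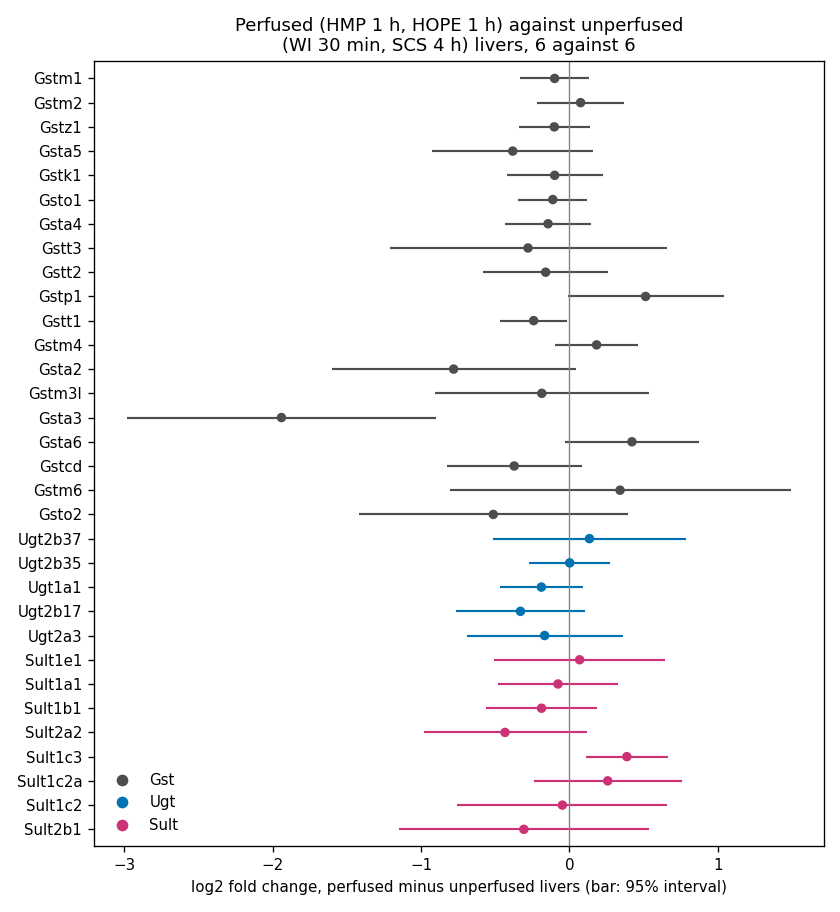
Log2 fold change of the 32 tested genes, perfused minus unperfused livers (6 against 6), with 95% intervals of the edgeR fit, in order of family and level. Gsta3 is at −1.94, Sult1c3 at 0.387 and Gstt1 at −0.241, and the intervals of the other 29 genes include 0.

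Gstp1, the pi class gene that is low in normal hepatocytes and found in bile duct cells, was high in the livers that stood apart. It was at 15.6, 17.1 and 11.7 CPM in the WI livers, 16.8, 18.5 and 13.2 after SCS, 33.8, 16.6 and 15.2 after HMP and 17.6, 15.8 and 33.3 after HOPE. HMP liver 1 and HOPE liver 3 were at about the same high level, and the other 10 livers were at 11.7 to 18.5 CPM. These livers also held 49.4 and 52.3 CPM summed over 8 bile duct markers, against 31 to 40.6 CPM elsewhere, 2010 and 1230 CPM of Kupffer markers against 537 to 840, 1400 and 1560 CPM of sinusoidal endothelial markers against 725 to 1080, and 2200 and 1460 CPM of stellate markers against 635 to 1210. The log2 difference of perfused from unperfused livers was 0.51 (SE 0.24, edgeR adjusted p = 0.292), and it was 0.079 (SE 0.143) without these livers.

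The same livers also held the 2 lowest sums of the Sult genes, 1800 CPM in HMP liver 1 and 2190 CPM in HOPE liver 3 against 2480 to 3820 CPM elsewhere. They were the 2 lowest livers for Sult1e1 (649 and 335 CPM against 655 to 1400) and for Gstz1 (276 and 317 CPM against 320 to 415). For other genes HMP liver 1 alone was low. It had the lowest Sult1b1 (185 CPM against 295 to 457), Ugt2b17 (126 against 242 to 417) and Sult2a2 (333 against 501 to 1220), and its periportal markers were also low (8840 CPM against 15500 to 20300). HOPE liver 3 had 355, 281 and 786 CPM of the 3 genes and 17200 CPM of periportal markers, in the range of the other livers. The part of cell composition or of the mitochondrial share in these values was not tested.

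**Figure D5:**
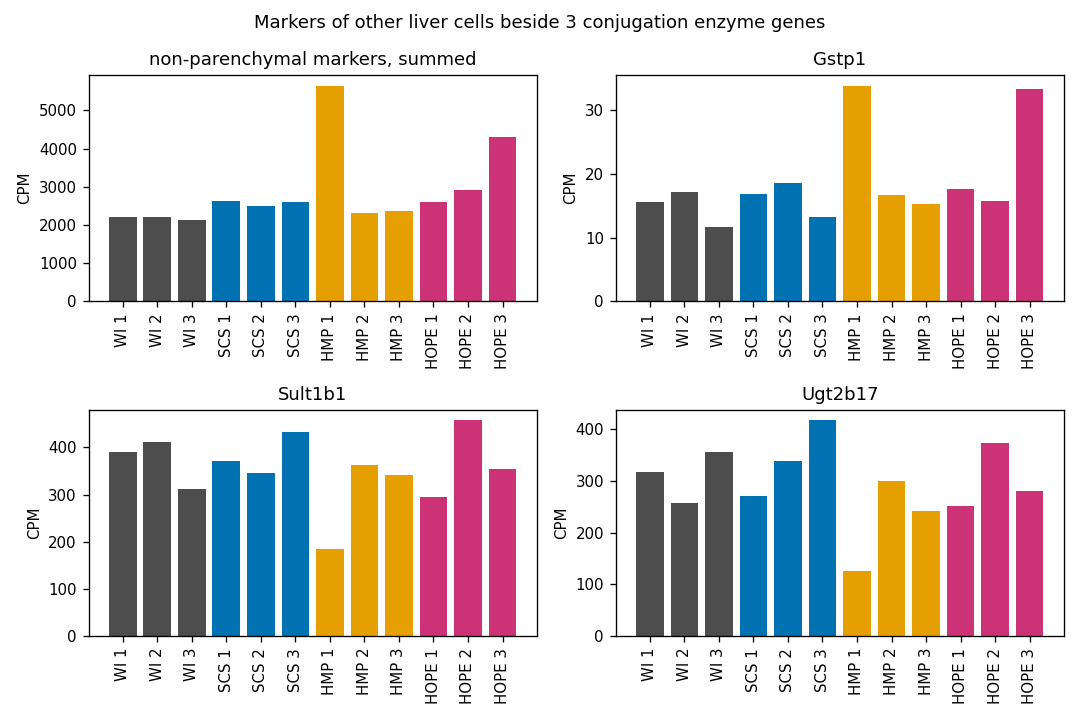
Summed CPM of 40 markers of non-parenchymal liver cells and CPM of Gstp1, Sult1b1 and Ugt2b17, 1 bar per liver, coloured by group. HMP 1 and HOPE 3 are highest for the markers (5650 and 4300 CPM) and for Gstp1 (33.8 and 33.3 CPM), and HMP 1 is lowest for Sult1b1 (185 CPM) and Ugt2b17 (126 CPM).

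Genes that supply or follow the conjugation step were read from lists chosen by function. For the cofactor of the Ugt enzymes, 1 of 7 tested genes of UDP-glucuronate supply was called, against 1.02% of all genes. Ugdh, the dehydrogenase that makes UDP-glucuronate, was lower in perfused livers. It was at 215, 182 and 153 CPM in the WI livers, 172, 164 and 175 after SCS, 95.5, 123 and 131 after HMP and 139, 135 and 123 after HOPE. Its perfused and unperfused livers did not overlap, as for 1.83% of all genes. The log2 difference was −0.51 (SE 0.106, edgeR adjusted p = 0.0475), and edgeR called it in 2 of the 12 fits that left out 1 liver, with adjusted p from 0.028 to 0.133 and differences from −0.57 to −0.44. Without HMP liver 1 and HOPE liver 3 its edgeR adjusted p was 0.122. Slc35b4, a nucleotide sugar transporter, had a difference of −0.143 (SE 0.142), and 6 of the 7 genes of the list were negative.

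In glutathione supply, 0 of 9 tested genes were called in any comparison, and 5 passed an unadjusted p under 0.05 in perfused against unperfused livers, 1 higher and 4 lower, against 17.7% of all genes passing, with 7 of 9 negative (median −0.311). Gclc, the catalytic subunit of the first enzyme of glutathione synthesis, was at 188, 122 and 229 CPM in the WI livers, 193, 170 and 226 after SCS, 107, 71.9 and 100 after HMP and 141, 140 and 145 after HOPE. Only WI liver 2 lay within the range of the perfused livers. Its log2 difference was −0.71 (SE 0.153, edgeR adjusted p = 0.0533). Gsr, which reduces oxidised glutathione, differed by −0.50 (SE 0.114, edgeR adjusted p = 0.0625), with 103 to 142 CPM in unperfused and 68.4 to 107 CPM in perfused livers. DESeq2 called 4 of the 9 genes, against 5.43% of all genes.

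The other lists held few differences past the threshold. In phase I oxidation and hydrolysis 1 of 15 tested genes was called in perfused against unperfused livers, against 1.02% of all genes. It was the quinone reductase gene Nqo2, at 39.4 to 46.9 CPM in unperfused and 28.7 to 34.2 CPM in perfused livers (log2 difference −0.44, SE 0.0798, edgeR adjusted p = 0.0367, called in 2 of the 12 fits without 1 liver and not without HMP liver 1 and HOPE liver 3, adjusted p = 0.0991). Ces1d, a carboxylesterase gene, differed by −0.80 (SE 0.193, edgeR adjusted p = 0.0723). None of 3 microsomal Gst genes was called, and Mgst2 was higher in the SCS 4 h livers (34, 42 and 37 CPM) than in WI 30 min (26.7, 25.4 and 25.9 CPM) by 0.53 on the log2 scale (SE 0.124, edgeR adjusted p = 0.899). Mgst3 differed by −0.0562 there. None of 15 regulators of conjugation genes was called, and the lowest p was that of Foxa3, at 34.8 to 39.1 CPM in HOPE 1 h and 46.4 to 88.4 CPM in the other livers, with Foxa1 next at 15.4 to 35.4 CPM. None of 11 genes of PAPS supply and sulfatases was called, with Slc35b2, the Golgi PAPS transporter, at 25.2 to 28.2 CPM in HMP 1 h and 19.7 to 24 CPM elsewhere, and Bpnt1 at 20.3 to 36.8 CPM. Foxa3 and Slc35b2 were picked by p within their lists, and the share of all genes with 1 group apart was not computed.

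Among genes of the later steps, 0 of 6 for mercapturate formation and glutathione breakdown were called. Acy1, an aminoacylase gene, differed by −0.45 (SE 0.116, edgeR adjusted p = 0.0913) in perfused livers and Cndp2, a dipeptidase gene, by −0.29 (SE 0.103, edgeR adjusted p = 0.187). None of 14 other conjugation enzyme genes was called, led by Tpmt, the thiopurine methyltransferase (−0.41, SE 0.127, edgeR adjusted p = 0.142), and Gamt, which makes creatine, at 272 to 353 CPM in HMP 1 h and 240 to 281 CPM elsewhere. None of 8 efflux transporter genes was called. Abcc4, which exports conjugates at the sinusoidal membrane, was at 4.01 to 5.87 CPM in HMP 1 h and 8.29 to 9.74 CPM in HOPE 1 h, a log2 difference of 0.91 (SE 0.195, edgeR adjusted p = 0.558), and Abcb4, the canalicular phospholipid transporter, differed by −0.38 (SE 0.12, edgeR adjusted p = 0.147) between perfused and unperfused livers. Of 10 periportal markers 1 was called in perfused against unperfused livers, against 1.02% of all genes. It was Hsd17b13, at 212 to 283 CPM in perfused and 281 to 404 CPM in unperfused livers (log2 difference −0.56, SE 0.106, edgeR adjusted p = 0.0406, and 0.103 without HMP liver 1 and HOPE liver 3). It was also called in 2 of the 12 fits without 1 liver.

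Marker lists of the cell types of liver tissue, and of the clock, held no other called gene. All 11 tested Kupffer markers, 10 of 11 sinusoidal endothelial, 10 of 10 stellate and 7 of 7 bile duct markers had positive differences between perfused and unperfused livers, with medians of 0.60, 0.54, 0.62 and 0.67 on the log2 scale, against 54.7% of all genes positive. HMP liver 1 and HOPE liver 3 held the high sums, and in the other 4 perfused livers the Kupffer sum was 610 to 784 CPM against 537 to 840 CPM in unperfused livers, and the non-parenchymal sum 2320 to 2920 against 2130 to 2640 CPM. C1qa ran from 62.8 to 101 CPM in unperfused and 72.5 to 250 CPM in perfused livers, and Sox9, from the bile duct list, was at 0.171 to 2.06 CPM. The 11 hepatocyte markers were positive for 6 (median 0.0022) and the 10 pericentral markers for 6 (median 0.082). Blood markers were lower in stored livers, with a median of −1.74 for SCS 4 h relative to WI 30 min and none of 5 positive, and Hba-a2 at 538 to 765 CPM in WI 30 min and 46 to 441 CPM in the other livers. Of 15 clock genes 12 were positive (median 0.16), and Npas2 ran from 1.3 to 21.1 CPM with both ends in perfused livers. The part of these lists in the values of the conjugation genes was not tested.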

How the data were processed

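RNA-seq was done on 12 livers, 1 library each, in 4 groups of 3 livers taken from the labels. The authors mapped the reads with Hisat2 2.0.5, assembled with StringTie 1.3.3b and deposited read counts and FPKM per gene. The build is Rnor_6.0 in the submitters' processing notes, and for the counting tool and its use of strand nothing is given in the sources consulted. The deposited counts were analysed, and the FPKM values made by the authors entered no test. The columns of the authors' own comparisons (group means, log2 fold changes and p-values) were not used. All 24 value columns matched a sample.

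Counts were filtered with filterByExpr, which left 13687 of 33744 genes, scaled by TMM and fitted over all 12 livers with the quasi-likelihood test of edgeR 4.0.16 in R 4.3.3 (8 residual and 3.86 prior degrees of freedom, common dispersion 0.0733). P-values were adjusted by Benjamini-Hochberg over all tested genes at 0.05, two-sided, in 8 comparisons, several of which share livers. They set differences between group means against the spread between these livers within groups. CPM uses the TMM-scaled library size, and per-kilobase levels divide by the gene length in the table. DESeq2 1.42.0, other scalings and filters, leaving out livers and a replicate block were the alternatives, and scripts were tested on simulated data. Genes that DESeq2 left without an adjusted p counted as not called. In HOPE 1 h against SCS 4 h these included Gstcd, Gstm3l, Gstm6, Gsto2 and Sult2b1. Where livers are said not to overlap, every liver of one group lay above or below every liver of the other.

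The genes named were every tested conjugation gene. Values per liver were given for the leading genes of each subfamily by level and the 3 lowest p in each comparison, and up to 2 genes for each list of related genes or markers, with any called gene. The conjugation genes and the lists were chosen with earlier results of these data known. Promoter sequences are from RefSeq on GRCr8.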

Additional observations from a re-analysis of the deposited data

Results flagged for a closer look

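In the 6 unperfused or the 6 perfused livers, 4 of 64 combinations of gene and side held a liver whose gap to its neighbour was large for the range of the 6, where 3.2 are expected at 1 in 20. Groups of 3 livers were not examined in this way. Gsta2 was at 31.7 CPM in SCS liver 2, with the nearest unperfused liver at 13.2 and the lowest at 4.12 CPM. Gstm1 was at 474 CPM in HMP liver 2, with the nearest perfused liver at 650 and the highest at 750 CPM. Sult1c2a was at 155 CPM in the same liver, against 81.4 CPM in the nearest and 60 CPM in the lowest perfused liver. Sult1c2 was at 15.6 CPM in HOPE liver 1, against 9.84 and 7.25 CPM.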

How the results depend on the processing

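Of 217 differences of the conjugation genes over the pairwise and perfused comparisons, 19 changed sign without HMP liver 1 and HOPE liver 3, such as Gstt3 in HOPE 1 h against WI 30 min (0.27 to −0.56), and 3 of 224 changed sign with DESeq2. The 217 include the 31 of SCS 4 h against WI 30 min, whose livers were all kept in that fit. None of the differences that changed sign had passed an unadjusted p under 0.05 with edgeR. None of the 3 genes with the lowest p in a comparison changed sign there under the alternatives run. Against 0 called genes of the 32 with edgeR, DESeq2 called 1 in the 4-group comparison, 2 in HMP 1 h against WI 30 min, 1 in HMP 1 h against SCS 4 h and 1 in perfused against unperfused livers, where the fit with no filter on low counts also called 1, Gsta3. At an unadjusted p under 0.05 the counts were 4, 3, 5, 3, 5, 1, 2 and 3 in the order of the report. Leaving out 1 liver at a time gave 0 to 1 called genes in perfused against unperfused livers (Gsta3, without WI liver 3) and 0 in the other comparisons. Leaving out HMP liver 1 and HOPE liver 3 gave 1 in HMP 1 h against WI 30 min, Sult1c3. The cause of these changes was not tested. By library total the Gst sum in HMP 1 h was 2020 CPM, against 2100 by TMM. With the replicate block edgeR called 0 of the 32 genes in each comparison. Of 18 same-numbered pairs of livers 1 correlated over 0.1 in deviation from the group means (−0.189 to 0.143), so the numbers were not taken as pairing, and 5 of 12 livers correlated best with their own number. Depth limits the 9 genes under the filter and Gstm6, Gsto2 and Sult2b1.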

Other observations

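A sulfotransferase-like gene outside the symbol rule lies beside Sult1c3 and was chosen after its values were seen. RGD1559960, described in the table as similar to sulfotransferase K1 (Rnor_6.0, chromosome 9, 4866705 to 4896476), was at 16.4, 19.9 and 20.3 CPM in WI 30 min, 18.1, 24.7 and 20.7 in SCS 4 h, 32, 47.7 and 46.4 in HMP 1 h and 27.3, 27.4 and 19 in HOPE 1 h. The HMP 1 h livers lay above all others, a pattern whose share of all genes was not computed, and HOPE liver 3 lay among the unperfused livers. The log2 difference of perfused from unperfused livers was 0.68 (SE 0.139, edgeR adjusted p = 0.0456), and 0.85 (adjusted p = 0.0182 with edgeR) without HMP liver 1 and HOPE liver 3. EdgeR called it in 1 of the 12 fits that left out 1 liver, with adjusted p from 0.0266 to 0.136. Reads shared with its Sult1c neighbours were not tested.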
